A study of Homo sapiens with 2 samples.

Results

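The genes examined here make short noncoding RNAs that fold into the working parts of essential particles, and 10 of them were taken by name from GENCODE 44, the GRCh38 annotation, which holds 62700 genes and 5150 small noncoding genes of up to 400 bp. They are the signal recognition particle RNAs RN7SL1 and RN7SL2, RN7SK, the ribozyme RNAs RMRP and RPPH1, the vault RNAs VTRNA1-1, VTRNA1-2 and VTRNA1-3, and the minor spliceosome RNAs RNU6ATAC and RNU4ATAC. The peaks came from ATAC-seq, in which the Tn5 transposase cuts open DNA and reads pile up over accessible chromatin. One list was from 50000 control 293T cells, a human embryonic kidney line with the SV40 large T antigen, and the other from 50000 293T cells given fresh medium with 0.5 mM methylglyoxal (MGO, a reactive by-product of glycolysis) for 12 h. For the control cells a label names PBS, while the protocol names fresh medium without any supplement. Each condition has 1 library here, so no difference has a replicate check and no test between conditions was made. Whether the genes are transcribed was not measured. There were 36142 peaks in control and 22884 in MGO, and as the lists give no number of reads, the depth at each peak is not known. Of promoters chosen as markers of the line, VIM, INA and PAX2 had a peak in both lists. Such peaks are common, at 67.3% of 20046 protein-coding genes in control and 63.8% in MGO, so these do not establish the cell type. A peak was assigned to a gene when it lay within 1000 bp of it.

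RNA polymerase III (Pol III) makes most of these RNAs. At RN7SK, RMRP, RPPH1 and RNU6ATAC the promoter is known to lie entirely before the gene, with a proximal sequence element bound by the SNAPc complex, a TATA box and a distal element with octamer or ZNF143 sites. The vault genes, in contrast, carry A and B boxes inside the transcribed sequence, which TFIIIC binds, and the 7SL genes combine internal with upstream elements. RNU4ATAC is transcribed by RNA polymerase II and is included for its role in the minor spliceosome, which removes a rare class of introns.

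The DNA around each gene start is shown first because it is the sequence on which the peaks lie. Each line gives 70 bases before the gene and its first 10 bases, read 5′ to 3′ on the gene strand of GRCh38, with the letters TATA in capitals. Every one of these stretches lay entirely inside both the control and the MGO peak of its gene.
RN7SL1, chr14:49586510-49586589, plus strand: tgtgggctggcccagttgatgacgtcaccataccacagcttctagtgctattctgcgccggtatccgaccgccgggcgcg
RN7SL2, chr14:49862840-49862919, minus strand: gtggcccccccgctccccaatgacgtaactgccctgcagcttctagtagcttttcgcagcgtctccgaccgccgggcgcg
RN7SK, chr6:52995551-52995630, plus strand: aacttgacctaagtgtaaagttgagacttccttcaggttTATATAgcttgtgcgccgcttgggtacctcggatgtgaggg
RMRP, chr9:35658008-35658087, minus strand: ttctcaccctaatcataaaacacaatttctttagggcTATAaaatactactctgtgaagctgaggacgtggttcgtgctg
RPPH1, chr14:20343398-20343477, minus strand: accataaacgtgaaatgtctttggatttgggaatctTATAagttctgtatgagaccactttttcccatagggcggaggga
VTRNA1-1, chr5:140711205-140711284, plus strand: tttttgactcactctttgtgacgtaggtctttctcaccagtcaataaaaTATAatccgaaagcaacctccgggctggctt
VTRNA1-2, chr5:140718855-140718934, plus strand: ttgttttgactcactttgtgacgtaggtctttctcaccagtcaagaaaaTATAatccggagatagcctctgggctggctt
VTRNA1-3, chr5:140726088-140726167, plus strand: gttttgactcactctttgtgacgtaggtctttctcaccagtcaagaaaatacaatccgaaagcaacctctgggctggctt
RNU6ATAC, chr9:134164555-134164634, minus strand: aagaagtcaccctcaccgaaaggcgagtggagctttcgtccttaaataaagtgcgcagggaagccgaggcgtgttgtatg
RNU4ATAC, chr2:121530811-121530890, plus strand: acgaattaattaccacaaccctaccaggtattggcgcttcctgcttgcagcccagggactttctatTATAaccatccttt

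A TATA stood 33 bases before RMRP, 34 before RPPH1 and 31 before RN7SK, the position of the known TATA box of Pol III promoters. A TATA with all its letters on the gene strand between 35 and 20 bases before the start was held by these 3 of the 10 genes and by 5.45% of 34943 RefSeq promoters (GRCh38.p14). VTRNA1-1 and VTRNA1-2 held TATAA beginning 21 bases before the start, which runs past the end of that window, and VTRNA1-3 had no TATA in this stretch. The start of RNU6ATAC had none either, although the gene is a known TATA-type Pol III gene, and no match says only that these letters are not in this window.

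The DNA at these small RNA genes was accessible in both libraries. All 10 genes had a single control peak and a single MGO peak, the 2 peaks overlapped at each gene, and the first base of the gene lay inside both. For comparison, 6.06% of the 5150 small noncoding genes had a control peak within 1000 bp and 4.78% an MGO peak, and 76.3% of those with a control peak had one that overlapped an MGO peak. Among all control peaks 49.9% overlapped an MGO peak, and among all MGO peaks 78.9% overlapped a control peak. The share was 84.6% for control peaks within 1000 bp of a protein-coding or lncRNA start and 25.4% for the others. Peak strength bears on this share as well. When control peaks were split by −log10 p into 20 groups of equal size, the groups that hold the 10 genes had shares of 84.2% to 99.8%, so a count of 10 out of 10 (95% Wilson interval 72.2 to 100%, counting error only) lay close to that background.

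**Figure D1:**
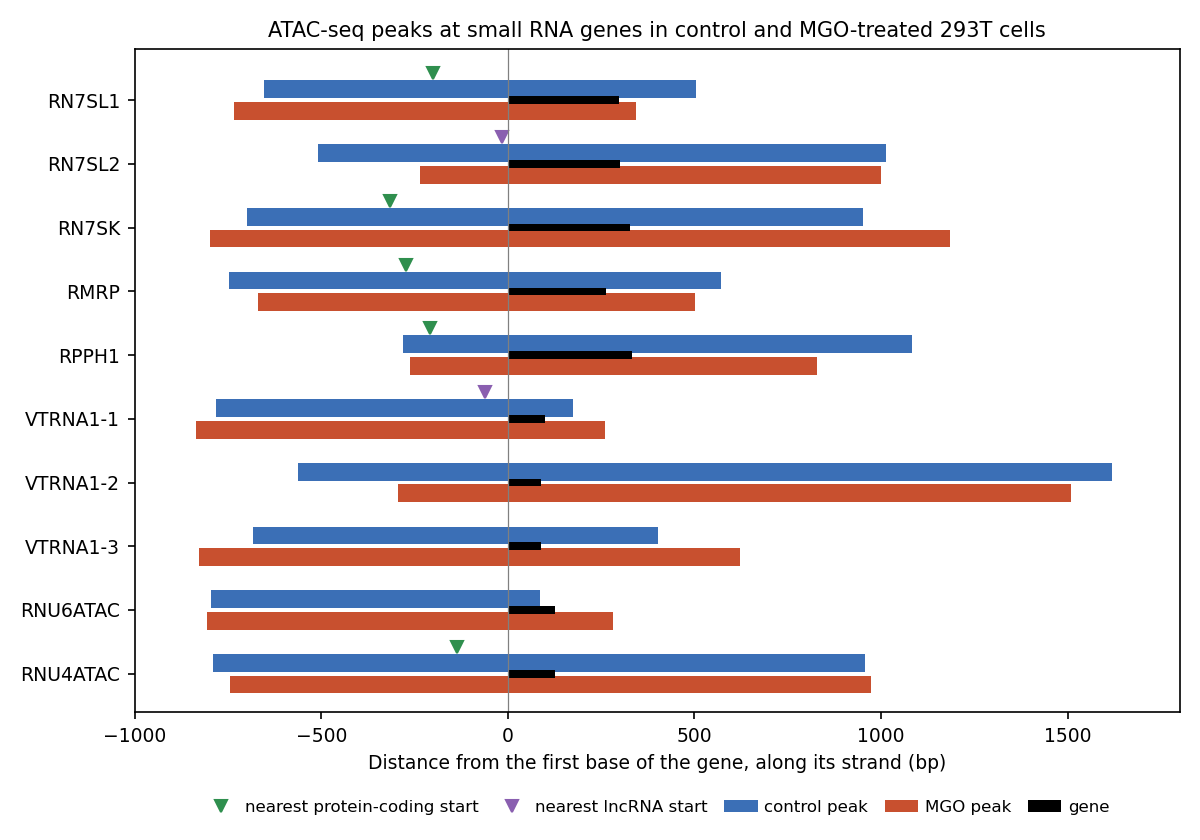
Control peaks (blue) and MGO peaks (red) at the 10 genes, with the gene as a black bar and the nearest protein-coding (green) or lncRNA (purple) start within 1000 bp as a triangle; the horizontal axis is the distance in bp from the first base of the gene along its strand. Both peaks cover the first base at all 10 genes, and the control peak of RNU6ATAC is the only one that ends inside the gene.

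Most of these peaks also held the start of another gene, so the accessible DNA cannot be assigned to the small RNA alone. A protein-coding start here is the start of any transcript of a protein-coding gene, whether or not that transcript is itself coding. At 5 genes the control peak contained such a start, in each case divergent from the small RNA gene and 136 to 317 bp from its first base. These partners were RPS29 at RN7SL1, GSTA4 at RN7SK, CCDC107 at RMRP, PARP2 at RPPH1 and CLASP1 at RNU4ATAC. RPS29 and CLASP1 are also annotated across the small RNA gene, so this start is not their outermost one. Both peaks at RNU4ATAC also held a start of the lncRNA gene CLASP1-AS1. At 2 genes, RN7SL2 (ENSG00000278002 and ENSG00000282885) and VTRNA1-1 (ENSG00000292256), the peaks held lncRNA starts only. The other 3, VTRNA1-2, VTRNA1-3 and RNU6ATAC, had no protein-coding or lncRNA start within 1000 bp of the peak. Among the 4460 small noncoding genes that likewise had no such start within 1000 bp, 3.34% had a control peak, and of these genes 61.7% had a control peak overlapped by an MGO peak.

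RN7SL1 and RN7SL2 encode the 7SL RNA, the scaffold of the signal recognition particle that brings ribosomes with secretory proteins to the endoplasmic reticulum. RN7SL1 (ENSG00000276168.1, chr14:49586580-49586878, plus strand) lies in an intron annotated to RPS29, which has a divergent start 200 bp away. Its control peak, chr14:49585928-49587083, was 1156 bp wide with a fold enrichment of 4.41 over background and a −log10 p of 18.6. The MGO peak, chr14:49585845-49586924, was 1080 bp wide with a fold enrichment of 3.15 and a −log10 p of 7.19. The peaks shared 997 bp, and from control to MGO the downstream edge, measured from the gene start, changed by −159 bp. RN7SL1 therefore kept its peak but held a lower rank. It moved from the 96.4th to the 66.1st percentile by −log10 p of its own list.

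RN7SL2 (ENSG00000274012.1, chr14:49862550-49862849, minus strand) overlaps an exon of the lncRNA gene ENSG00000282885, which starts 15 bp upstream on the same strand. The control peak, chr14:49861836-49863358, was 1523 bp wide, with a fold enrichment of 2.94 and a −log10 p of 8.13. The MGO peak, chr14:49861849-49863084, was 1236 bp wide, with a fold enrichment of 2.66 and a −log10 p of 5.26. It lay entirely inside the control peak and the distance of its upstream edge from the gene start changed by −274 bp. Here the fold enrichment was the lowest of the 10 genes in both lists.

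RN7SK (ENSG00000283293.1, chr6:52995621-52995948, plus strand) makes the 7SK RNA, which holds the elongation factor P-TEFb in an inactive particle. A start of GSTA4, a glutathione transferase gene, lies 317 bp away on the other strand. The control peak, chr6:52994921-52996573, was 1653 bp wide, with a fold enrichment of 3.51 and a −log10 p of 13.2. The MGO peak, chr6:52994823-52996806, was wider at 1984 bp, with a fold enrichment of 3.06 and a −log10 p of 7.89. It contained the whole control peak and reached 98 bp further upstream and 233 bp further downstream. The RN7SK peak was thus broader and ranked lower under MGO, at the 71.5th percentile of the MGO list and the 90.1st of the control list.

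RMRP (ENSG00000277027.1, chr9:35657754-35658017, minus strand) is the RNA of RNase MRP, which cuts precursor ribosomal RNA, and RPPH1 (ENSG00000277209.1, chr14:20343075-20343407, minus strand) is the RNA of RNase P, which trims the 5′ end of precursor tRNAs. At RMRP the control peak, chr9:35657446-35658763, was 1318 bp wide, with a fold enrichment of 3.51 and a −log10 p of 10.9. The MGO peak there, chr9:35657515-35658687, was 1173 bp wide, with a fold enrichment of 3.53 and a −log10 p of 11.4. At RPPH1 the control peak, chr14:20342324-20343687, was 1364 bp wide, with a fold enrichment of 3.65 and a −log10 p of 12.3. The MGO peak of RPPH1, chr14:20342578-20343670, was 1093 bp wide, with a fold enrichment of 3.84 and a −log10 p of 12.7. These were the 2 genes whose −log10 p was higher in the MGO list. Both MGO peaks lay inside the control peak, and at RPPH1 the downstream edge, measured from the gene start, changed by −254 bp. The RPPH1 gene overlaps an exon of the lncRNA gene ENSG00000259001 on its own strand, whose start the control peak held and the MGO peak did not.

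The vault RNAs are found in vault particles, large ribonucleoprotein shells of the cytoplasm, and also free in the cell. Their 3 genes lie in a row on the plus strand of chromosome 5 inside the lncRNA gene ENSG00000292256, exonic at VTRNA1-1 and intronic at VTRNA1-2 and VTRNA1-3. VTRNA1-1 (ENSG00000199990.1, chr5:140711275-140711373) had a control peak, chr5:140710494-140711449, of 956 bp and an MGO peak, chr5:140710439-140711535, of 1097 bp. Its fold enrichment was 4.13 in control and 3.87 in MGO, and its −log10 p was 12.6 and 9.94. The MGO fold enrichment was the highest of the 10 genes in that list.

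VTRNA1-2 (ENSG00000202111.1, chr5:140718925-140719013) had the widest control peak of the 10 genes, chr5:140718364-140720543 with 2180 bp, and an MGO peak, chr5:140718632-140720434, of 1803 bp. Fold enrichment at VTRNA1-2 was 3.50 in control and 3.63 in MGO, with a −log10 p of 11.7 and 9.56. Most of the peak lay past the gene, with the control peak ending 1618 bp and the MGO peak 1509 bp after the gene start. VTRNA1-3 (ENSG00000202515.1, chr5:140726158-140726246) had a control peak, chr5:140725476-140726561, of 1086 bp and an MGO peak, chr5:140725331-140726779, of 1449 bp. At VTRNA1-3 the fold enrichment was 4.23 in control and 3.59 in MGO, with a −log10 p of 14.1 and 7.52. The MGO peak of VTRNA1-3 was 1.33 times as wide as the control peak, the highest width ratio of the 10 genes, and contained it whole.

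The 3 vault genes are shown in full because their sequence is close while their peaks differed in width. Capitals mark the letters TTCGANNCC, the centre of the B box, and each gene lay entirely inside both of its peaks.
VTRNA1-1, chr5:140711275-140711373, plus strand: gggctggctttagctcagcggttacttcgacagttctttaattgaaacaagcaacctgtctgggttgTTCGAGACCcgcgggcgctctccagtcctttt
VTRNA1-2, chr5:140718925-140719013, plus strand: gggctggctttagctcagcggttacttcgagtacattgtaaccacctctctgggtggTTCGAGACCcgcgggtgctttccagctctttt
VTRNA1-3, chr5:140726158-140726246, plus strand: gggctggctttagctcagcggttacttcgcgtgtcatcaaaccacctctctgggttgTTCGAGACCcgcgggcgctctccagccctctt

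The vault genes were 81.8% (VTRNA1-1 and VTRNA1-2), 83.0% (VTRNA1-1 and VTRNA1-3) and 87.8% (VTRNA1-2 and VTRNA1-3) identical over the alignment. The 250 bases before the genes were 83.5% to 84.3% identical, so the likeness extends into the upstream DNA. A longer form of the B box motif, with 2 more fixed bases in front, matched VTRNA1-2 alone.

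The minor spliceosome RNAs U6atac and U4atac pair with each other before the spliceosome becomes active. RNU6ATAC (ENSG00000221676.1, chr9:134164439-134164564, minus strand) overlaps no other annotated gene, and the nearest lncRNA start is 4205 bp away. Its control peak, chr9:134164478-134165359, was the narrowest of the 10 at 882 bp, with a fold enrichment of 3.37 and a −log10 p of 8.21. It covered 87 of the 126 bp of the gene, or 69.0%. The MGO peak, chr9:134164282-134165369, was 1088 bp wide, covered the whole gene and reached 196 bp further downstream, with a fold enrichment of 2.75 and a −log10 p of 5.25. The MGO peak at RNU6ATAC had the lowest −log10 p of the 10 genes, at the 44.8th percentile of its list.

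RNU4ATAC (ENSG00000264229.1, chr2:121530881-121531007, plus strand) lies in introns annotated to CLASP1 on the other strand and to CLASP1-AS1 on its own, and a divergent CLASP1 start is 136 bp away. The control peak, chr2:121530092-121531837, was 1746 bp wide, with a fold enrichment of 4.04 and a −log10 p of 19.7, the highest of the 10 genes. The MGO peak, chr2:121530137-121531853, was 1717 bp wide, with a fold enrichment of 2.98 and a −log10 p of 7.65. The extent of the RNU4ATAC peak changed least of all, with an overlap of 96.5% of the joint span of the 2 peaks, while its −log10 p moved from the 97.1st to the 69.7th percentile.

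Taking the genes side by side, fold enrichment was lower in MGO at 7 of the 10, and the same held for 72.2% of 17948 pairs of peaks that overlapped 1 to 1 across the genome. The −log10 p percentile within a list was lower in MGO at 8 of 10 genes, against 76.2% of the pairs, so the members' counts were near the background. Percentiles of the 2 lists have unequal bases, since the control list holds more weak peaks. Ranked among the 17948 pairs only, the percentile was lower in MGO at 6 of 10 genes, against 49.8% of all pairs. The median change was −16.7 percentage points (range −35.1 to 15.6) at the 10 genes and 0.0446 over all pairs. In the control groups by −log10 p that hold the 10 genes, the median change of pairs was −4.02 to −1.25. The change was −35.1 points at RN7SL1 and −32.2 at RNU4ATAC. In the same 1 of the 20 control groups by −log10 p, 2.11% of pairs changed by as much as RN7SL1 or fell further, and 2.39% did so for RNU4ATAC. At RMRP and RPPH1 the change was 15.6 and 13.3 points, and 86.9% and 91.0% of the pairs in their groups had a lower or equal change. For the remaining genes this share was 13.2% (VTRNA1-3), 21.5% (RN7SK), 23.3% (RNU6ATAC), 24.5% (RN7SL2), 61.8% (VTRNA1-1) and 68.4% (VTRNA1-2). These are values of single peaks in 1 library a condition, with no error.

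**Figure D2:**
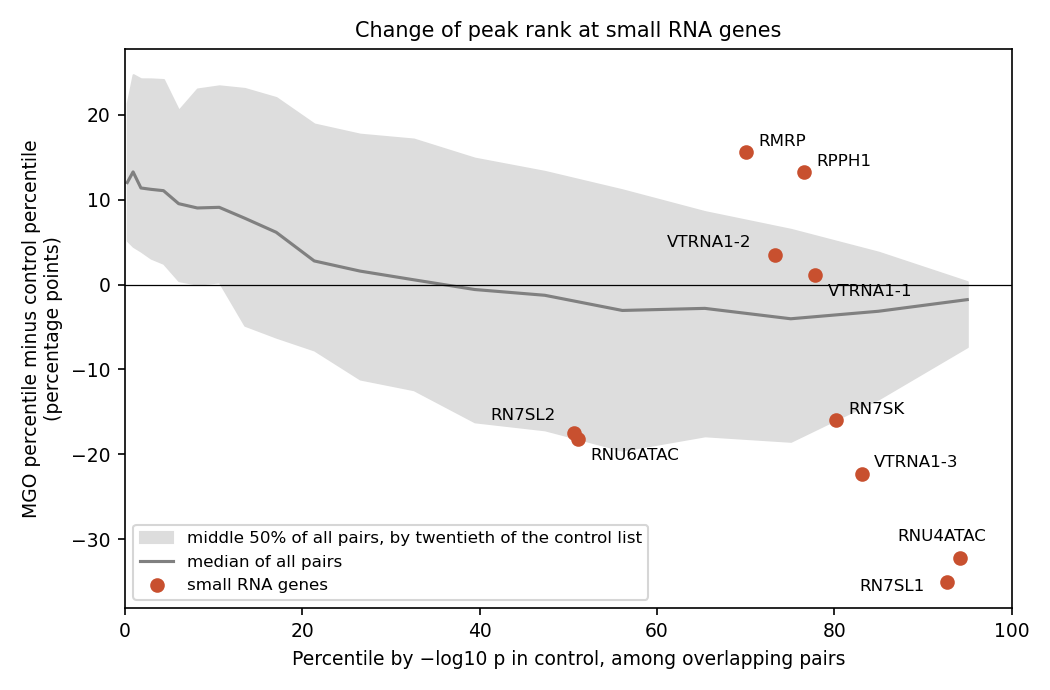
Percentile by −log10 p in control among 17948 overlapping pairs (horizontal axis) against the MGO percentile minus the control percentile in percentage points (vertical axis), for the 10 genes (red points), with the median (line) and the middle 50% (grey) of all pairs in each of the 20 control groups. RN7SL1 (−35.1) and RNU4ATAC (−32.2) lie lowest and RMRP (15.6) highest.

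In width, the MGO peak was narrower at 6 genes and wider at 4, and over all pairs 68.5% were narrower. The ratio of MGO to control width ran from 0.801 at RPPH1 to 1.33 at VTRNA1-3, with a median of 0.959 beside 0.882 for all pairs. At 4 genes (RN7SL2, RMRP, RPPH1 and VTRNA1-2) the MGO peak lay inside the control peak, at another 4 (RN7SK, VTRNA1-1, VTRNA1-3 and RNU6ATAC) it contained the control peak, and at RN7SL1 and RNU4ATAC each peak reached past the other. The upstream edge moved outwards at 5 genes and inwards at 5, by −274 to 145 bp, and the downstream edge likewise at 5 and 5, by −254 to 233 bp. Of the 3 genes with no coding or lncRNA start nearby, VTRNA1-3 and RNU6ATAC had wider peaks under MGO and VTRNA1-2 a narrower one. No common direction of change in peak extent was seen over the 10 genes.

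Several of these RNAs have many near copies in the genome, and the authors removed reads that mapped to more than 1 place. Windows of 50 bases, the read length, were therefore looked up in the genome. Within RN7SL1, 15.6% of such windows occurred once on the main chromosomes, within RN7SL2 13.1%, within RN7SK 22.9% and within RNU6ATAC 55.8%. In the other 6 genes all windows occurred once. The genes RN7SL1 and RN7SL2 were 98.3% identical to each other, but the 250 bases before them only 53.6%. In the 1000 bases upstream of the 10 genes 91.1% to 100% of windows occurred once. Downstream the share was 75.6% to 100%, lowest at RNU4ATAC and 80.0% at VTRNA1-2. Over the part of the control peak within 1000 bp of the gene it was 86.3% at RNU4ATAC and 86.5% at VTRNA1-2, beside 84.6% at RN7SK and 73.9% at RN7SL1. The control peak of VTRNA1-2 runs past that distance, and its far end was not looked up. The peaks at RN7SL1, RN7SL2 and RN7SK thus span a gene body in which few single 50-base reads can be placed, and their flanks carry most of the unique sequence. The effect of repeated sequence on the peak values was not tested at any of the genes.

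**Figure D3:**
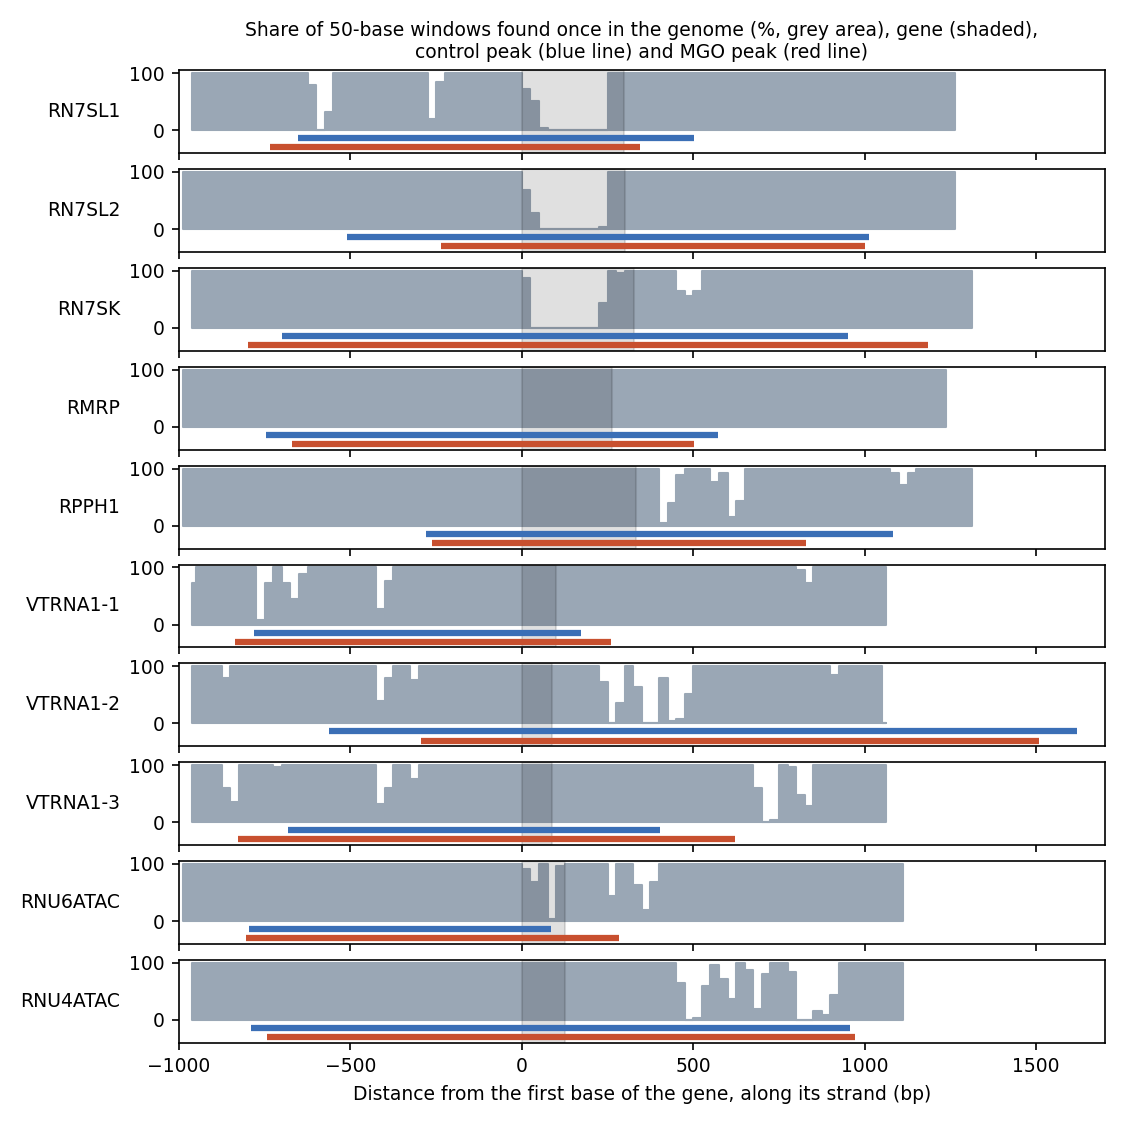
For each gene, the share of 50-base windows that occur once on the main chromosomes (grey area, 0 to 100%, drawn to 1000 bp on either side of the gene) by distance in bp from the gene start along its strand, with the gene shaded and the control (blue) and MGO (red) peaks as lines. The share drops inside RN7SL1, RN7SL2 and RN7SK, where it is 15.6%, 13.1% and 22.9% over the gene, and stays at 100% inside RMRP.

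The peaks at VTRNA1-2, VTRNA1-3 and RNU6ATAC held no coding or lncRNA start. For this reason the DNA at the starts of VTRNA1-3 and RNU6ATAC is shown at greater length, while that of VTRNA1-2 is not printed at this length. The lines give 250 bases before and 50 bases from the start of each gene on its strand of GRCh38, with capitals for the AP-1 motif TGACTCA and for TGACGT, the core of the cAMP response element, on either strand, and for TATA on the gene strand.
VTRNA1-3, chr5:140725908-140726207, plus strand: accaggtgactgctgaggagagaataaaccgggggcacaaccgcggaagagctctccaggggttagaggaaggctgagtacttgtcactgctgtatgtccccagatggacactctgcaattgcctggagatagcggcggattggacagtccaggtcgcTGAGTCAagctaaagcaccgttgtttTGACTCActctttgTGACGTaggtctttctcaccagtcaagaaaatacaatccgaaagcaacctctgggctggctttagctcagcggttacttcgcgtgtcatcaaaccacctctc
RNU6ATAC, chr9:134164515-134164814, minus strand: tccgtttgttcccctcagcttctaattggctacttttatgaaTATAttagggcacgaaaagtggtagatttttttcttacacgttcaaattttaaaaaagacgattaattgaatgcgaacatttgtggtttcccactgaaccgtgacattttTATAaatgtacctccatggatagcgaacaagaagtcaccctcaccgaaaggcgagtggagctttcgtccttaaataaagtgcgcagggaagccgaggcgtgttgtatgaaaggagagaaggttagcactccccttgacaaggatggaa

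Both stretches lay inside both peaks of their gene. All 3 vault genes held the AP-1 motif 2 times within 92 bases before the start, and this motif was found in 4.96% of the RefSeq promoters of this length. The core TGACGT lay 52 bases before the start of each vault gene. It was found in 6 of the 10 genes, namely the 3 vault genes, RN7SL1, RN7SL2 and RPPH1, against 7.97% of promoters. The full element TGACGTCA, which contains this core, was present at RN7SL1 and RPPH1 and in 1.84% of promoters. The octamer ATTTGCAT was present before RMRP, RPPH1 and RNU4ATAC (1.77% of promoters), and the ZNF143 core motif before RN7SL1 and RN7SK (1.73%). TATAA, on either strand, was found at 7 genes against 20.5% of promoters, and the GC box GGGCGG at 4 against 44.9%. The longer B box motif was found in 0 of these windows and in 0.186% of promoters. Its match inside VTRNA1-2 begins 55 bases after the first base of the gene, past the end of the window. The window therefore could not show this match, and the 0 says nothing about the B box inside the vault genes. A run of TTTT, the known Pol III stop signal, began within the last 10 bases or the next 10 bases of every gene but VTRNA1-3. This includes RNU4ATAC, a gene of RNA polymerase II, where the run began 9 bases before the last base. No share over other genes was computed for this run. None of the 10 genes has an entry in the RefSeq promoter table. The AP-1 motif, the short cores of the cAMP response element and of the B box, and the window for TATA were chosen after the sequences had been read, and a match is a description, not a bound site.

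The other genes of the pathway showed that most copies of these RNAs had no peak. A peak lay within 1000 bp of 22 of 678 other 7SL copies in control and 9 in MGO, of 5 and 4 of 293 7SK copies, and of 29 and 17 of 1276 U6 genes and copies. Many of these copies are pseudogenes. Over all 5150 small noncoding genes the share was 6.06% in control and 4.78% in MGO. Away from coding and lncRNA starts it was 2.71% and 0.796% for the 7SL copies and 1.73% and 0.822% for U6, beside 3.34% and 1.97% for all small noncoding genes there. Of the 7SL copies, RN7SL3, a further 7SL gene, had a fold enrichment of 3.60 in control and 3.31 in MGO, and RN7SL4P one of 3.65 and 3.10. The strongest 7SL copy with a peak within this distance in control only, RN7SL688P, had a −log10 p of 8.51 there, and for U6 this was RNU6-218P with 9.58. Both of these control peaks did overlap an MGO peak, which lay more than 1000 bp from the gene, so they are not peaks missing from the MGO list. Counted by overlap, 12 of the 22 7SL copies and 15 of the 29 U6 genes with a control peak had one that met an MGO peak, against 76.3% of small noncoding genes with a control peak and 61.7% of those away from other starts. RN7SKP25 among the 7SK copies had a control peak of 3.81 that overlapped no MGO peak. The 5S ribosomal RNA genes, a tandem array of near-identical copies, had a peak at 8 of 17 genes in control and 5 in MGO, with a fold enrichment at RNA5S1 of only 1.78 and 1.72. RNY1 and RNY3, 2 of the 3 Y RNA genes found in the annotation, had a peak in both lists, with fold enrichments of 2.75 and 2.52 in control and 2.66 in MGO at both. BCYRN1 had a weak control peak (−log10 p of 3.12) and no MGO peak. By comparison, the spliceosomal and histone-processing snRNA genes of RNA polymerase II had a peak at 33 of 41 genes in control and 30 in MGO, with RNU5F-1, RNVU1-3 and RNVU1-23 in control only, where the shares over all small noncoding genes are the 6.06% and 4.78% above. Copies in these families can share reads, so which copy a peak belongs to is uncertain.

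The genes for proteins that make these RNAs or bind them, taken by peaks within 1000 bp of a start, were mostly accessible in both lists. Among all 20046 protein-coding genes 67.3% had a control peak at a start and 63.8% an MGO peak, and 7.01% of those with a control peak had no MGO peak. Pol III subunits and transcription factors had a peak at 32 of 32 genes in control and 31 in MGO, the exception being BDP1, a subunit of the initiation factor TFIIIB, whose control peak had a −log10 p of 4.37. RNase P and MRP proteins had a peak at 10 of 11 genes in control and 9 in MGO, with POP5 in control only at a −log10 p of 6.94. The 6 SRP proteins, the 4 proteins of the 7SK particle and the 9 minor spliceosome proteins had a peak in both lists at every gene, and of the vault proteins with SSB, which binds new Pol III transcripts, 3 of 4 did. In all, 64 of the 66 genes had a control peak and 2 of these 64 had no MGO peak. Of the 62 with a peak in both lists, 49 had a lower fold enrichment in MGO, against 75.9% of protein-coding genes with both. Among the genes of highest control fold enrichment, SRP9 had a fold enrichment of 4.51 in control and 3.79 in MGO, LARP7, which stabilises 7SK, 4.79 and 3.73, RPP40 5.17 and 4.56, and RNPC3 4.86 and 3.53. HEXIM2, which with 7SK inhibits P-TEFb, had a fold enrichment of 3.05 in both lists and a −log10 p of 5.80 in control and 6.98 in MGO. All these genes, HEXIM2 included, were picked on the control value, so lower MGO values among them are not a result. With 1 library a condition these counts were not tested.

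**Figure D4:**
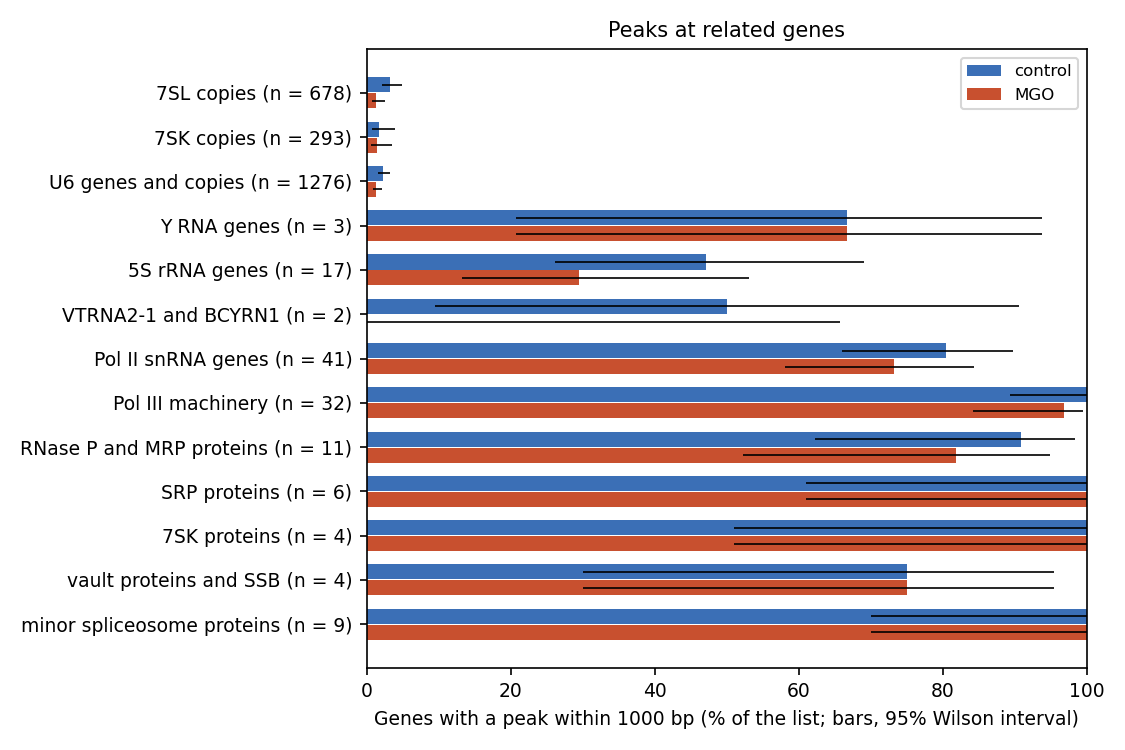
Share of the genes in each related list with a peak within 1000 bp, in percent, for control (blue) and MGO (red), with 95% Wilson intervals that cover counting error only. The 7SL, 7SK and U6 copies stand at 1.33% to 3.24%, and the Pol III machinery at 100% in control and 96.9% in MGO.

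All 20 peaks at the 10 genes had a q-value under 0.01, the limit in the methods of the study. With a stricter limit of a −log10 q of at least 5 in both lists, all 10 genes kept the control peak and 5 kept the MGO peak, namely RN7SK, RMRP, RPPH1, VTRNA1-1 and VTRNA1-2. Under that limit 59.2% of all control peaks overlapped an MGO peak, and 59.1% at a −log10 q of at least 2. RN7SL1, RN7SL2, VTRNA1-3, RNU6ATAC and RNU4ATAC had MGO values between 2.73 and 4.94.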

How the data were processed

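The 2 deposited lists hold broad ATAC-seq peaks. The authors aligned 50-base paired-end reads to GRCh38 with BWA-MEM 0.7.15, dropped mitochondrial and multi-mapping reads using Picard, subsampled at random to equal depth, and ran MACS2 on each sample outside blacklisted regions. By the methods of the study, broad peaks were called and those with a q-value under 0.01 were taken further, but the deposited lists also hold weaker ones, since 23907 of the 36142 control peaks reach a −log10 q of 2. The version of MACS2 and its limit for the deposited lists are not given in the sources used here. The methods also name consensus peaks from an Irreproducible Discovery Rate, and the peak names in both lists carry the number 2, so the study may hold further libraries, which were not analysed here. Each deposited peak carries the authors' fold enrichment (a ratio), −log10 p, −log10 q and a score made from the q-value, which was not used. Read depth per peak is unknown. Marker promoters of other cells are not reported here.

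All deposited peaks within 1000 bp of the 10 genes in GENCODE 44 were taken, with overlap from 1 bp. The members, gene lists and motifs were chosen with earlier results of these data known. Besides the members, the text names genes of the related lists by a rule: up to 4 a list with a peak in 1 library only, by −log10 p, and the 2 of highest control fold enrichment, of which a selection is printed. No test was made, because the labels give 1 library a condition. Shares carry 95% Wilson intervals for counting error. Ranks are percentiles within a list or among the 17948 pairs that overlapped 1 to 1. All 216 contig names of the lists are in the genome used, with every peak inside its contig, and the 10 GENCODE transcripts matched it. Alternatives were stricter peaks, equal numbers of peaks, other distances and other overlaps. Python 3.11.15, numpy 2.4.6, pandas 2.3.3, scipy 1.17.1, numba 0.67.0, biopython 1.88 and matplotlib 3.10.9 were used, and overlaps were tested on simulated data and checked against bedtools.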

Additional observations from a re-analysis of the deposited data

How the results depend on the processing

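No paired analysis was possible because each condition has 1 library and no test was made. The main results were computed again under other settings, which gave 42 values. Of these, 35 were identical and 5 moved, while the other 2 were counts within 1.5 times. A −log10 q of at least 2, equal numbers of peaks (22884 a list), distances of 0, 500 and 2000 bp, a distance of 1000 bp from the gene start, and overlaps of at least 50% of 1 or both peaks left the 10 overlapping pairs in place. None of these settings could remove a pair, so the identical values there are no check. All 20 peaks cover the gene start and have a q-value under 0.01. The lowest overlap was 80.1% of a control peak and 74.9% of an MGO peak. The control peaks ranked from the 74.5th percentile upwards by −log10 p. When a −log10 q of 5 or more was asked of both lists, 5 genes had an MGO peak, 5 had overlapping peaks, and 50% of the control peaks at the genes overlapped an MGO peak. That setting removes weaker peaks by construction. The median width ratio of 0.959 was 0.890 there and 1.23 for the 3 genes with no protein-coding or lncRNA start in the peak, so with those genes alone it turned from narrower to wider, on values of single peaks with no replicate error. Ranking among pairs or by fold enrichment, both added after seeing the data, gave 6 and 7 genes of lower rank in MGO, where ranking by −log10 p in each list gave 8. The lists hold no read counts, which limits any statement on the size of a change.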
